A study of Mus musculus with 5 samples.

Results

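The genes of major histocompatibility complex (MHC) antigen presentation were examined in sorted mouse regulatory T cells (Tregs) from skin and from the lymph nodes draining it. Members were the rows whose symbol starts with H2- (the mouse MHC) together with Cd74, Ciita, Nlrc5, B2m, Tap1, Tap2, Tapbp, Tapbpl, Erap1, Calr, Canx and Pdia3, which gave 55 of the 24084 genes in the table. Of these, 42 belong to class I, 12 to class II, and 1 (H2-Ke6, a dehydrogenase gene) carries an H2 name only. All mice were 13 days old and of the Foxp3-DTR/GFP line, in which the Foxp3 locus drives the diphtheria toxin receptor and green fluorescent protein; both groups carry this allele, and the labels mention no toxin. There were 3 lymph node libraries and 2 skin libraries, with 10468795 to 14595018 counts assigned to genes in each. Sources used here do not give the H2 haplotype of the mice, the sort gate or the number of animals behind a library.

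MHC class I molecules display peptides from the cytosol to CD8 T cells on nearly every nucleated cell, as a heavy chain (H2-K1 and H2-D1 are the classical ones in this table) paired with beta-2 microglobulin. Class II molecules display peptides taken up by endocytosis to CD4 T cells, as an alpha and a beta chain escorted by the invariant chain, Cd74. Class II is a hallmark of dendritic cells, macrophages and B cells, and mouse T cells are known for making little of it, while they make ample class I. Nlrc5 is the transcriptional coactivator of class I genes and Ciita that of class II genes; both act through a shared promoter module, the X and Y boxes.

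That module can be seen in the promoter sequences of members from both classes, which are shown because class I and class II genes with alike promoters differed in how they were expressed here. RefSeq promoter windows on GRCm38.p6 (the mm10 assembly) were found for 8 class II and 29 class I members. Within the 250 bases before the start, the letters TGANG (part of the X box), then 12 to 30 bases, then ATTGG (core of the Y box) were searched on both strands. The spelling was set after reading the members' promoters. On the strand of the gene it was found in 6 of the 8 class II and 7 of the 29 class I members, against 2.42% of all 27025 genes with a window. On either strand it was found in the same 6 class II and in 12 class I members, against 4.37% of all genes; the 5 added are H2-M10 genes, close relatives of each other without a count here. Each stretch below reads 5′ to 3′ on the strand of the gene, with the matched letters in capitals; for H2-Oa only ATTGG was found, and it alone is in capitals.
H2-Aa, chr17:34287861-34287911, minus strand: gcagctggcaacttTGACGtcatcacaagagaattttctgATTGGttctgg
H2-Eb1, chr17:34305770-34305818, plus strand: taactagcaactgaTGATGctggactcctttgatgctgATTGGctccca
H2-DMb2, chr17:34145120-34145169, plus strand: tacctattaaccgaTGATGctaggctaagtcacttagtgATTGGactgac
H2-Ob, chr17:34238812-34238858, plus strand: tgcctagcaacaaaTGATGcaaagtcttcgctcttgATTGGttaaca
H2-Oa, chr17:34092286-34092340, plus strand: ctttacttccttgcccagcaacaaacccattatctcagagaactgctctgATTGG
H2-K1, chr17:34000353-34000402, minus strand: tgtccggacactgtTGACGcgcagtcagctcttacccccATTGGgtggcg
B2m, chr2:122147595-122147644, plus strand: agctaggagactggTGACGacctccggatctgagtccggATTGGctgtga
The gap between the matches was 17 to 21 bases in the 6 stretches that hold both. A match describes these letters and does not show that a factor binds there.

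Before the results, the libraries need a description, since some stand apart. Lymph node libraries 1, 2 and 3 had 12173, 12540 and 12338 genes with a count. Skin libraries 1 and 2 had 9894 and 9192 such genes. Their counts assigned to genes were 10787378 and 10468795, against 12305644 to 14595018 in lymph node. The cause of the lower gene number in skin was not tested. Values are CPM, gene counts relative to the scaled library size, and are always given in the order lymph node 1, 2, 3, then skin 1, 2. The 10 Treg and T cell markers summed to 12065 to 14282 CPM in the lymph node and 11821 and 13782 CPM in the skin libraries, but they did not move alike. Ctla4 (mean 713 to 2384 CPM) and Ikzf2 (1323 to 2450 CPM) rose and Lck (2905 to 1584 CPM) fell; Cd3e, Cd3d, Cd3g and Cd4 also lay below the lymph node range in both skin libraries without passing the test, and Foxp3, Il2ra and Tnfrsf18 overlapped. The 12 macrophage markers, whose sum is carried by Lyz2, C1qb, Mrc1, Emr1 and Csf1r, summed to 11.9 to 22.2 CPM in lymph node but 1499.8 and 1853 CPM in skin. Of the 12, 9 were tested, and these 9 were higher in both skin libraries than in any lymph node library (16.8% of all tested genes). The skin libraries differed for Emr1 (223 and 20.6 CPM) and Cd163 (25.4 and 157 CPM). Fcgr1 (153 counts) and Cd14 (234 counts) were each found in 1 skin library only, and Mertk was at 0 everywhere. The 10 dendritic cell markers summed to 0.235 to 3.93 CPM and to 244 and 329 CPM. Most of the skin sum came from Cd209a (100 and 152 CPM) and Clec10a (88.5 and 113 CPM), both without a count in lymph node. Flt3 and Xcr1 also lay above the lymph node range in both skin libraries, while Ccl22 and Zbtb46 overlapped. Itgax, Clec9a, Batf3 and Ccl17 were at 0 in every library. Of the 4 Langerhans cell markers, Cd207 and Itgax were at 0 in every library. The other members, Epcam and Emr1, lay above the lymph node range in both skin libraries. Epcam had 10.4, 6.80 and 2.64 CPM in lymph node and 29.3 and 82.7 CPM in skin. The 8 B cell markers summed to 129.7, 82.1 and 228 CPM in lymph node and to 22.0 and 72.1 CPM in skin. Cd79b made up most of this in lymph node libraries 1 and 2 and all of it in skin, with 118, 61.6 and 120 CPM against 22.0 and 72.1 CPM; the other 7 markers summed to 11.4, 20.6 and 108 CPM in lymph node and to 0 in both skin libraries. Lymph node library 3 held the most by either sum. The 7 keratinocyte markers summed to 2.85 to 4.38 CPM in lymph node and to 105 and 115 CPM in skin. These markers did not share 1 direction. Krt14 made up most of the skin sum (68.7 and 109 CPM) and had no count in lymph node. Dsp also lay above the lymph node range in both skin libraries. Krt10 made up most of the lymph node sum (2.31, 4.302 and 2.85 CPM) and was at 0 in both skin libraries. Krt15 had 321 counts in skin library 1 and 0 in skin library 2. Krt5 and Trp63 were each found in 1 skin library only, and Krt1 was at 0 everywhere. In bulk libraries like these, fewer cells of a type and less RNA per cell cannot be told apart.

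Class II genes split in the skin libraries. The surface chain genes H2-Aa, H2-Ab1 and H2-Eb1 and the invariant chain gene Cd74 were far higher than in the lymph node libraries. The genes of the inhibitor H2-O had lower values. These skin libraries also held macrophage and dendritic cell markers, and the part of such cells in the class II levels was not tested. Of the 12 class II members, 10 passed the low-count filter; 4 of these rose, 0 fell and 6 did not pass an adjusted p of 0.05 in edgeR's quasi-likelihood test. At an unadjusted p under 0.05, 8 of the 10 passed, against 29.5% of all tested genes. Among all 11437 genes tested, 7.7% were called in either direction, 2.4% as higher and 5.3% as lower. The median log2 fold change of the 10 members was 4.05, against -0.21 over all tested genes. The skin libraries were both above the lymph node range for 6 of the 10 (16.8% of all tested genes) and both below it for 2 of the 10 (33.5% of all tested genes). The 2 members left out by the filter were H2-Ea-ps, without a count, and H2-Eb2, with 24 counts in all, 22 of them in lymph node library 3.

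**Figure D1:**
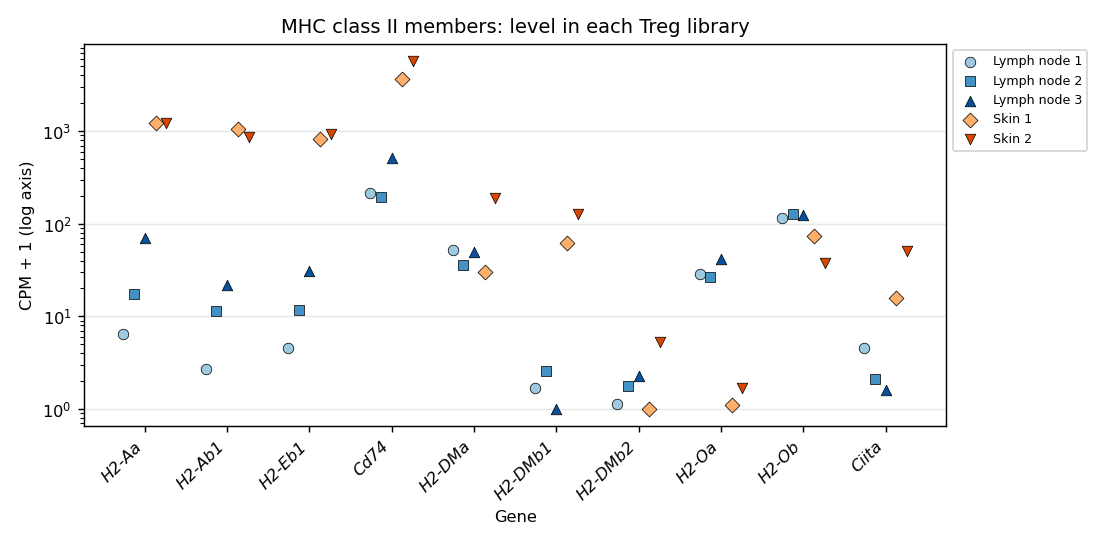
Levels of the 10 tested class II members in each library, as CPM + 1 on a log axis; each symbol is 1 library (blue: lymph node, orange: skin). H2-Aa, H2-Ab1, H2-Eb1 and Cd74 sit higher in both skin libraries than in any lymph node library, H2-Oa and H2-Ob lower, and lymph node library 3 is the highest of its group for the first 4.

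H2-Aa, H2-Ab1 and H2-Eb1 encode chains of the peptide-binding surface molecules I-A and I-E, and lie next to each other on chromosome 17. H2-Ea-ps, the row for the I-E alpha chain, is annotated as a polymorphic pseudogene and had 0 counts in every library. Whether the I-E molecule is made was not tested. H2-Aa (34282744 to 34287823), the I-A alpha chain, had 5.47, 16.3 and 68.3 CPM in lymph node and 1217 and 1225 CPM in skin. The skin libraries were nearly equal, whereas the lymph node libraries spread widely without reaching the skin values. Its log2 fold change was 5.34 (SE 1.08, edgeR adjusted p = 0.0496). H2-Ab1 (34257689 to 34269419), the I-A beta chain, had 1.68, 10.6 and 21.01 CPM against 1042 and 858 CPM, a log2 fold change of 6.42 (SE 1.04, edgeR adjusted p = 0.0452). H2-Eb1 (34305867 to 34316674), the I-E beta chain, had 3.57, 10.7 and 29.6 CPM against 827 and 938 CPM, a log2 fold change of 5.91 (SE 0.92, edgeR adjusted p = 0.0433). The 3 chains share 1 order of the lymph node libraries, lowest in library 1 and highest in library 3. Their summed level was 10.7, 37.6 and 119 CPM in lymph node and 3086 and 3021 CPM in skin. The sum of the B cell markers other than Cd79b has the same order in lymph node and was 0 in skin, whereas the sum of all 8 was lowest in library 2, and the macrophage and dendritic cell markers were high in both skin libraries; the part of these cells in the class II levels was not tested.

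Cd74 on chromosome 18 (60803848 to 60812652) was the most abundant class II member per length of exon in both groups, at a mean of 184 CPM per kilobase in lymph node and 2781 in skin. It encodes the invariant chain, which blocks the peptide groove and steers class II molecules to endosomes. Its levels were 215, 192 and 517 CPM in lymph node and 3664 and 5675 CPM in skin, a log2 fold change of 3.92 (SE 0.52, edgeR adjusted p = 0.0381). Per kilobase, Cd74 exceeded H2-Aa by 89.0, 26.6 and 17.1 times in the lymph node libraries and by 6.81 and 10.48 times in the skin libraries. Lymph node libraries 1 and 2 thus had nearly the same Cd74 level although their H2-Aa levels differed. The ratio of H2-Ab1 to H2-Aa per kilobase was 0.455, 0.955 and 0.455 in lymph node and 1.27 and 1.04 in skin.

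Leaving out lymph node library 3 raised the log2 fold changes to 6.81 for H2-Aa, 7.28 for H2-Ab1, 6.95 for H2-Eb1 and 4.52 for Cd74. With any 1 lymph node library left out, edgeR called 0 class II members and 0 genes in the whole table (6 to 7 class II members at an unadjusted p under 0.05), while with all libraries DESeq2 called 8 and limma-voom 7. Without skin library 1 edgeR called 9 class II members, and without skin library 2 it called 6. The members' counts stand beside the share of all tested genes called in the same way: 28.5% with DESeq2, 19.5% with limma-voom, 48.7% without skin library 1 and 39.2% without skin library 2. For edgeR with other settings that share was 7.97% with median-of-ratios scaling, 7.56% without scaling factors, 7.66% with upper-quartile scaling, 2.21% without the low-count filter, 14% with a minimum count of 50, 0.184% with the replicate number as a block and 0% without any 1 of the lymph node libraries. The call of H2-Aa was also lost with upper-quartile scaling (adjusted p = 0.0506) and without the low-count filter (adjusted p = 0.0572).

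The genes that edit the peptide cargo of class II did not move as 1 group. H2-DM, made of H2-DMa with H2-DMb1 or H2-DMb2, removes the invariant chain fragment and lets peptides bind; H2-O, made of H2-Oa and H2-Ob, inhibits H2-DM and is best known from B cells. H2-DMb1 (34153072 to 34160230) had 0.701, 1.56 and 0 CPM in lymph node and 61.3 and 128 CPM in skin; the groups do not overlap, but the difference did not pass the test (log2 fold change 6.95, SE 1.74, edgeR adjusted p = 0.0626). H2-DMa (34119541 to 34139101) had 51.1, 34.9 and 48.8 CPM against 28.9 and 187 CPM, so that 1 skin library lay below and the other above all lymph node libraries (adjusted p = 0.371). Per kilobase, H2-DMb1 stood at 0.0281 and 0.0920 of H2-DMa in lymph node libraries 1 and 2, and at 4.34 and 1.40 of it in skin. H2-DMb2 was low throughout, with 0.140, 0.782 and 1.29 CPM against 0 and 4.28 CPM (adjusted p = 0.677). H2-DMb1 and H2-DMb2 are close copies: 22.7% of the 50-base windows of H2-DMb1 transcripts also occur in H2-DMb2, and reads aligned to more than 1 place were counted to no gene.

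H2-Oa and H2-Ob stood lower in skin than in every lymph node library, opposite to the surface chains. H2-Oa (34092340 to 34095234) had 27.5, 25.5 and 41.0 CPM in lymph node and 0.0934 and 0.697 CPM in skin, where it rests on 1 and 7 counts. The log2 fold change of -6.28 (SE 1.35) had an edgeR adjusted p of 0.0519, just short of the threshold. The gene was called by DESeq2 (adjusted p = 9.93e-09) and limma-voom (adjusted p = 0.0102). EdgeR called it as lower with upper-quartile scaling (adjusted p = 0.0494) and with a minimum count of 50 (adjusted p = 0.0389). Without skin library 1 its log2 fold change was -5.48 and without skin library 2 it was -8.26. H2-Ob (34238903 to 34254414) had 113, 127 and 123 CPM against 73.0 and 36.6 CPM (a log2 fold change of -1.15, SE 0.44, adjusted p = 0.157). Its lymph node level was 121 ± 7.14 CPM (SD, n = 3), whereas H2-Oa was highest in lymph node library 3. In these libraries the 8 B cell markers summed to 82.1 to 228 CPM, and those other than Cd79b to 11.4, 20.6 and 108 CPM. Whether H2-Oa and H2-Ob come from Tregs or from other cells was not tested.

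Ciita (chromosome 16, 10480059 to 10528418), the class II coactivator, followed the surface chains in direction without passing the test. It had 3.57, 1.09 and 0.610 CPM in lymph node and 14.8 and 49.4 CPM in skin, with no overlap (log2 fold change 4.18, SE 1.21, edgeR adjusted p = 0.0827). Within the groups it did not share the order of the chains: lymph node library 1, lowest for H2-Aa, was highest for Ciita, and skin library 2 had 3.33 times the Ciita of skin library 1 at nearly equal H2-Aa. DESeq2 called Ciita (adjusted p = 0.00177), as did limma-voom (adjusted p = 0.04999). Its log2 fold change was 4.80 without skin library 1 and 3.06 without skin library 2.

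Class I showed no shift of this kind. Of the 42 class I members 21 were tested, and 1 rose (Tapbpl), 0 fell and 20 did not pass, where 7.7% of all tested genes passed; 6 of the 21 had an unadjusted p under 0.05 (29.5% of all tested genes). The median log2 fold change of the 21 was -0.13, against -0.21 over all tested genes. The medians lay further apart with limma-voom (-0.14 against -0.85), the replicate block (-0.19 against -0.86) and no low-count filter (-0.08 against -0.46). They also did without skin library 1 (-0.46 against -1.05) and without skin library 2 (-0.26 against -0.59). The skin libraries were both above the lymph node range for 3 of the 21 and both below it for 8, against 16.8% and 33.5% of all tested genes. The summed level of the 32 H2 heavy chain genes was 3632, 4906 and 4043 CPM in lymph node and 4384 and 3651 CPM in skin, groups that overlap.

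**Figure D2:**
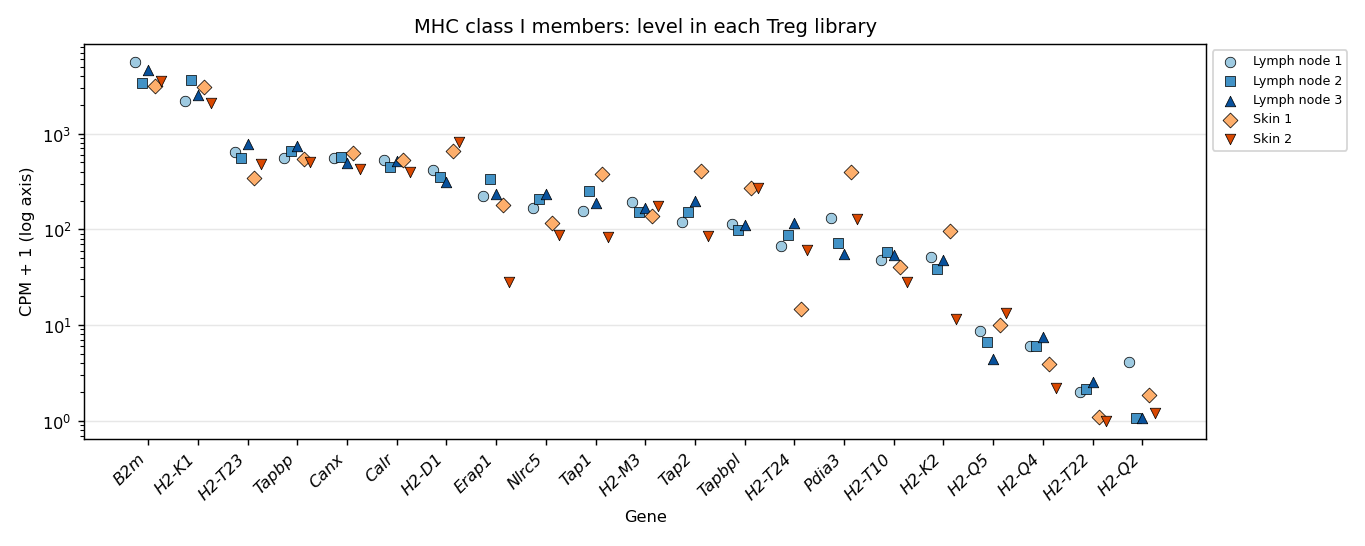
Levels of the 21 tested class I members in each library, ordered by their lymph node mean, as CPM + 1 on a log axis; each symbol is 1 library (blue: lymph node, orange: skin). The groups overlap for B2m and H2-K1, both skin libraries lie above lymph node for H2-D1 and Tapbpl, and the skin libraries lie on either side of the lymph node libraries for Tap1 and Tap2.

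B2m (chromosome 2, 122147686 to 122153083), the light chain that every class I heavy chain needs to reach the surface, was the most abundant member per kilobase, at a mean of 5287 CPM per kilobase in lymph node and 3877 in skin. Its levels were 5616, 3357 and 4666 CPM in lymph node and 3139.7 and 3529 CPM in skin (log2 fold change -0.45, SE 0.25, edgeR adjusted p = 0.305). H2-K1 (chromosome 17, 33996017 to 34000347), a classical heavy chain, had 2207, 3649 and 2562 CPM against 3087 and 2072 CPM (a log2 fold change of -0.12, SE 0.30, adjusted p = 0.844). For both genes the groups overlap and the difference is within the spread. H2-D1 (35262730 to 35267499), the second classical heavy chain, had 414, 351 and 312 CPM against 658 and 811 CPM. Both skin libraries lay above all lymph node libraries, and the log2 fold change of 1.03 (SE 0.22) fell just short of the threshold with an edgeR adjusted p of 0.0509. It was called with median-of-ratios scaling (adjusted p = 0.0498), a minimum count of 50 (0.0364), DESeq2 (0.000283) and limma-voom (0.0217). Of the 50-base windows of H2-D1 transcripts 12.8% also occur in another gene, most often H2-Q1, and of those of H2-K1 9.63%.

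Among the other heavy chain genes, the non-classical H2-T and H2-M genes carried most of the counts. H2-T23 (36029773 to 36032855), which encodes Qa-1, a ligand of natural killer cell receptors, had 642, 561 and 773 CPM against 339 and 482 CPM; the groups do not overlap, but the test was not passed (log2 fold change -0.68, SE 0.26, adjusted p = 0.153). H2-M3, which presents formylated peptides, was at 169.6 ± 19.02 CPM (SD, n = 3) and 155 ± 25.3 CPM (SD, n = 2). H2-T24 was at 65.3, 86.7 and 117 CPM in lymph node and 13.6 and 59.8 CPM in skin (adjusted p = 0.333). Its log2 fold change was -0.59 without skin library 1 and -2.72 without skin library 2. H2-K2, an unprocessed pseudogene, was at 50.3, 37.2 and 47.2 CPM against 95.2 and 10.6 CPM (adjusted p = 0.907). Its log2 fold change was -2.09 without skin library 1 and 1.08 without skin library 2. H2-T10 was at 52.2 ± 4.62 CPM (SD, n = 3) and 33.3 ± 8.36 CPM (SD, n = 2) and did not pass. H2-T22 shares 31.2% of its 50-base windows with H2-T10 and had 0.981, 1.17 and 1.56 CPM in lymph node, against 1 count in skin library 1 and none in skin library 2 (adjusted p = 0.117). H2-Q2, H2-Q4 and H2-Q5 had means between 0.520 and 10.6 CPM in either group, and none passed.

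No count was found for 16 class I members, and 5 more had at most 14 counts over all libraries. They include H2-Q6, H2-Q7, H2-Q8, H2-Q9, H2-L, H2-T3, H2-T9 and most H2-M genes. A count of 0 allows up to 3 counts, which is 0.203 to 0.299 CPM depending on the library. Of the 50-base windows of H2-Q6 transcripts 35.0% occur in another gene, and of those of H2-Q7 26.5%, and reads from such windows were counted to no gene. H2-M1, H2-M2 and H2-M9 share at most 1.61% of theirs. H2-L, H2-Q8, H2-Q9 and H2-T9 had no entry under that symbol in the GENCODE M21 annotation, which was found for 51 members.

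The genes of peptide supply and loading differed from each other, and several differed between the skin libraries. Tapbpl on chromosome 6 (125223933 to 125231860) encodes TAPBPR, a peptide editor related to tapasin, and was the only class I member past the threshold. It had 112, 97.1 and 109.8 CPM in lymph node and 269.8 and 267 CPM in skin, a log2 fold change of 1.34 (SE 0.24, edgeR adjusted p = 0.0463). Tapbp (tapasin), which bridges empty class I molecules to the peptide pump, had 552, 654 and 749 CPM against 545 and 506 CPM (a log2 fold change of -0.31, SE 0.21, adjusted p = 0.398). The call of Tapbpl was lost on leaving out any of the lymph node libraries (adjusted p = 0.113 to 0.115), with upper-quartile scaling (0.05002) and without the filter (0.0619). The log2 fold change of Tapbpl was 1.33 without skin library 1 and 1.34 without skin library 2.

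Tap1 and Tap2 encode the pump that carries peptides into the endoplasmic reticulum. Tap1 had 153, 249.7 and 189 CPM in lymph node but 381 and 82.1 CPM in skin. Tap2 had 117, 153 and 196 CPM in lymph node but 404 and 84.2 CPM in skin. For both, skin library 1 lay above and skin library 2 below every lymph node library (adjusted p = 0.866 and 0.590), and the ratio of Tap2 to Tap1 per kilobase stayed between 0.885 and 1.54 in all 5 libraries. The same pattern was found for Calr, Canx and H2-K2, that is for 5 of the 21 tested class I members, and with the order of the skin libraries turned for H2-DMa and H2-DMb2 of class II; it held for 23.2% of all tested genes. Without skin library 1 the log2 fold changes of Tap1 and Tap2 were -1.27 and -0.89. Without skin library 2 they were 0.94 and 1.37. Erap1, which trims peptides in the endoplasmic reticulum, had 222, 337 and 234 CPM against 177 and 27.0 CPM (adjusted p = 0.323), and Pdia3, a disulfide isomerase of the loading complex, 130.2, 71.2 and 54.6 CPM against 399 and 127 CPM (adjusted p = 0.152). The lectin chaperones Calr and Canx were at means of 501 and 540.0 CPM in lymph node and 463 and 532 CPM in skin.

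Nlrc5 (chromosome 8, 94434356 to 94527272), the class I coactivator, had lower values in both skin libraries than in all lymph node libraries. It stood at 167, 208 and 231 CPM against 115 and 86.7 CPM (log2 fold change -1.003, SE 0.31, edgeR adjusted p = 0.0939) and was called by DESeq2 only among the tools run on all libraries (adjusted p = 0.0114). Nlrc5 thus had a negative and Ciita a positive fold change; neither passed the edgeR test. H2-Ke6, which is not an MHC gene, had 14.1, 17.0 and 12.3 CPM against 2.61 and 0 CPM (adjusted p = 0.309).

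**Figure D3:**
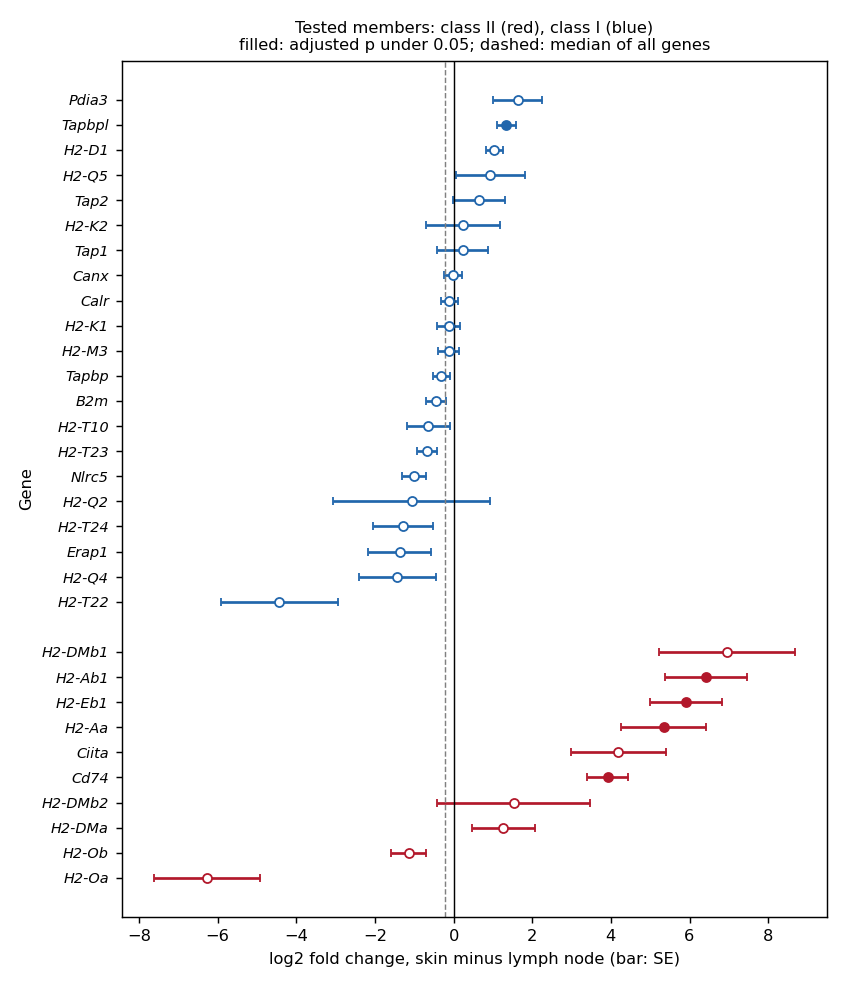
Log2 fold change (skin minus lymph node) of the 31 tested MHC members with bars of 1 SE, class I in blue and class II in red; filled points passed an adjusted p of 0.05 in edgeR and the dashed line is the median of all tested genes, -0.21. The class I points lie around the dashed line, with Tapbpl filled, while 8 of the 10 class II points are positive, 4 of them filled, and H2-Oa and H2-Ob are negative.

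Other genes of antigen presentation were read from 8 lists. Of their 64 tested genes, 2 rose (Cst3 and Fcgrt) and 1 fell (Irf9), which is 4.69% called against 7.7% of all tested genes. In the list of endosomal processing 1 of 11 tested genes rose: Cst3, which encodes cystatin C, an inhibitor of the cathepsins that degrade the invariant chain. Cst3 had 176, 109 and 139 CPM in lymph node and 468 and 422 CPM in skin (log2 fold change 1.65, SE 0.28, edgeR adjusted p = 0.0452). In the interferon gamma list 1 of 10 fell: Irf9, a subunit of the interferon-activated factor ISGF3, from 354, 311 and 394 CPM to 44.3 and 33.8 CPM (log2 fold change -3.18, SE 0.30, edgeR adjusted p = 0.0224). In the list of non-classical, class I-like genes outside H2, 1 of 6 rose: Fcgrt, the neonatal Fc receptor, a heavy chain that pairs with B2m. Fcgrt had 2.17, 1.799 and 1.36 CPM against 20.6 and 676 CPM (log2 fold change 7.61, SE 1.49, edgeR adjusted p = 0.0484). Its skin libraries differed 32.8-fold, and the call was lost with limma-voom (adjusted p = 0.273). Without the low-count filter the calls of Cst3 (adjusted p = 0.0516) and Fcgrt (0.0550) were lost, and leaving out any of the lymph node libraries ended all 3.

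**Figure D4:**
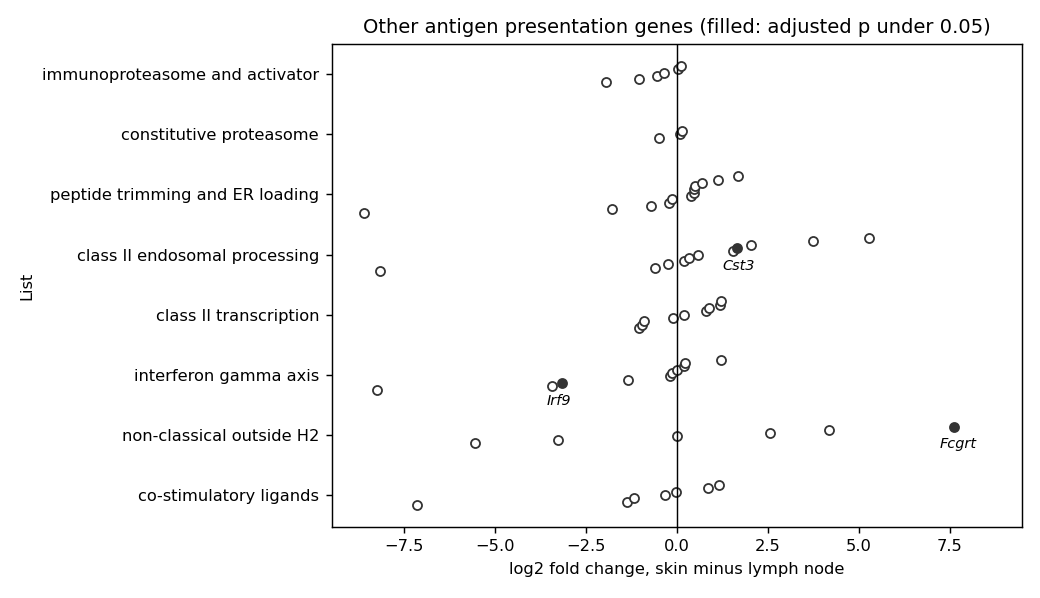
Log2 fold change (skin minus lymph node) of the tested genes in the 8 lists of other antigen presentation genes, 1 point per gene; filled points passed an adjusted p of 0.05 in edgeR. Only Cst3, Irf9 and Fcgrt are filled, and open points far from 0 belong to genes with few counts in 1 group or with unequal libraries.

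Of the 37 tested genes of the remaining 5 lists, edgeR called 0 (7.7% of all tested genes), with 5 at an unadjusted p under 0.05; DESeq2 called 3 and limma-voom 1. Among the 6 immunoproteasome and activator genes, which shape peptides for class I, Psmb8 was at 1015 ± 139 CPM (SD, n = 3) in lymph node and 691 ± 313 CPM (SD, n = 2) in skin, and Psme1 at 633 ± 139.7 and 306 ± 140.2 CPM. Of the 3 constitutive proteasome genes, Psmb6 was at 337 ± 42.2 and 373 ± 79.0 CPM and Psmb7 at 160.1 ± 45.03 and 114 ± 35.6 CPM. Of 12 genes of peptide trimming and loading, Hspa5 was at 1073 ± 127 and 973 ± 431 CPM and Hsp90b1 at 399 ± 35.1 and 562 ± 97.7 CPM. Of 9 tested class II transcription factor genes, Creb1, whose product binds the X box, was at 116 ± 24.3 and 266 ± 9.26 CPM (edgeR adjusted p = 0.0589). Creb1 was called by DESeq2 (adjusted p = 0.000553), by limma-voom (adjusted p = 0.02901) and by edgeR with a minimum count of 50. Nfyb, a Y box subunit, was at 148 ± 29.5 and 171 ± 55.2 CPM. Of 7 co-stimulatory ligand genes, Cd83 was at 431 ± 66.2 and 344 ± 74.0 CPM and Cd86 at 170.5 ± 24.4 and 65.0 ± 42.7 CPM. Cd86, a ligand of Cd28 that antigen-presenting cells display with class II, thus had lower values in both skin libraries than in any lymph node library (adjusted p = 0.145).

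**Figure D5:**
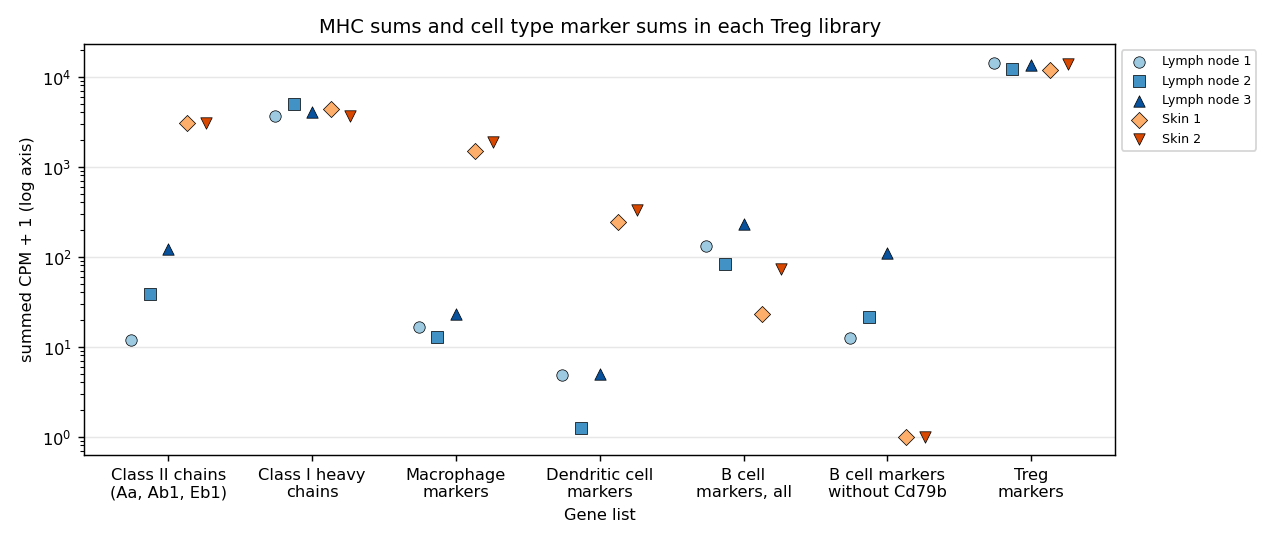
Summed CPM + 1 per library on a log axis for the 3 class II surface chains, the 32 class I heavy chain genes and the markers of 4 cell types; each symbol is 1 library (blue: lymph node, orange: skin). Class II chains and the macrophage and dendritic cell markers are high in both skin libraries, the B cell markers other than Cd79b are at 0 there while all 8 together are not, and the sums of class I heavy chains and Treg markers overlap between the groups.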

How the data were processed

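Tregs of 3 lymph node and 2 skin libraries were profiled by RNA sequencing. Per the labels' protocols, frozen sorted cells went to a company for column RNA isolation and SMARTer Ultra Low Input cDNA. The tools named in the submitters' processing notes are TopHat2 2.0.12, Bowtie2 2.1.0.0, HTSeq 0.6.1, SAMtools 0.1.19.0 and CASAVA 1.8.2, with mm10 as the build; for the annotation and the strand setting, nothing is stated. What the authors deposited is 1 table of raw counts per gene symbol. Its header lacks a cell for the symbols and was read as shifted by 1. The 5 HTSeq summary rows, 78.3 to 80.7% of all counts (64.5 to 72.0% not uniquely aligned), entered neither library sizes nor tests.

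Counts were fitted with edgeR 4.0.16 in R 4.3.3 (filterByExpr, minimum count 10; TMM; quasi-likelihood F test; Benjamini-Hochberg over 11437 genes; threshold 0.05; common dispersion 0.843). The SE is the fold change divided by the root of F. Alternatives used DESeq2 1.42.0 and limma 3.58.1. Functions were tested on simulated data. Nothing says that libraries are separate animals, so p-values measure the spread between libraries, which may be technical; floors cover counting error only. No single-gene permutation test was run, since 3 against 2 libraries cannot reach the threshold.

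Positions and exon lengths are from GENCODE M21 (mm10) by symbol. Members, gene lists and the rule for named genes (all tested class II and called class I members, 7 set class I genes; of each other list the called genes, or the 2 most abundant) were chosen with earlier results of these data known. The Treg markers, Cd79b, Krt14, the leading macrophage markers and the class I genes beyond the rule were named after their values were seen. So were the dendritic cell markers with counts, Epcam, Fcgr1, Cd14, Cd163 and the keratinocyte markers other than Krt14. Emr1 stands for Adgre1; Hm13 was not found by symbol or synonym.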

Additional observations from a re-analysis of the deposited data

How the results depend on the processing

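H2-Oa and H2-T22 rest on few or no counts in skin. All called genes numbered 881, but 315 without the low-count filter, 1391 with a minimum count of 50, 3262 with DESeq2, 2231 with limma-voom, and 0 (without any 1 lymph node library) to 6065 (without skin library 1) on leaving out 1 library; at 0, 2361 to 2484 genes had an unadjusted p under 0.05. Class II calls were 4, but 8 with DESeq2, 7 with limma-voom and 0 to 9 on leaving out 1 library. Class I calls were 1, but 2 with median-of-ratios scaling or a minimum count of 50 and 3 with DESeq2 or limma-voom. They were 0 with upper-quartile scaling or without the filter (edgeR, 5 at an unadjusted p under 0.05 in either). Without any 1 lymph node library they were 0 as well, with 3 to 5 at an unadjusted p under 0.05. The number of calls also changed without either skin library, for all genes and for both classes. Those fits leave 1 skin library, so their calls are not counted here. The class I median stayed between -0.46 and -0.08 and the class II median between 3.06 and 4.52 under all alternatives. The all-gene median was -0.21, but -0.37 with upper-quartile scaling, -0.46 without the filter, -0.85 with limma-voom, -0.86 with the replicate block, -1.05 without skin library 1 and -0.59 without skin library 2. Deviations from the group means correlated at -0.04 between the libraries of replicate 1 and at -0.03 between those of replicate 2, over 11437 genes. The deviations of 2 skin libraries mirror each other, so these correlations cannot show whether the replicate numbers pair the libraries. With a replicate block edgeR called 21 genes, 0 class I members (1 at an unadjusted p under 0.05) and the same 4 class II members; the calls of Tapbpl, Cst3, Fcgrt and Irf9 were lost. Log2 fold changes of uncalled genes turned sign with limma-voom for H2-DMb2 (-0.35), H2-K2 (-0.43), H2-Q2 (0.48) and Tap1 (-0.0924), with the replicate block for H2-K2 (-0.45) and Tap1 (-0.14), for Canx with median-of-ratios scaling (0.0131) and DESeq2 (0.0131), and for Psmb6 with upper-quartile scaling (-0.0144). On leaving out 1 library they ranged from -0.34 to 0.0721 for Calr, -0.33 to 0.22 for Canx, -0.64 to 2.05 for H2-DMa, -6.29 to 2.52 for H2-DMb2, -0.44 to 0.13 for H2-K1, -2.09 to 1.08 for H2-K2, -0.31 to 0.0254 for H2-M3, -0.69 to 0.25 for Hspa5, -0.18 to 0.49 for Nfyb, -0.10 to 0.34 for Psmb6, -1.27 to 0.94 for Tap1 and -0.89 to 1.37 for Tap2. The cause of these changes was not tested. H2-DMb2 gave no value without lymph node library 3, where it did not pass the filter.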
